A study of Homo sapiens with 4 samples.

Results

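The genes described here encode the glucose transporters, the enzymes of glycolysis with their controlling kinases, the lactate dehydrogenases and lactate carriers, and the enzymes that decide what mitochondria do with pyruvate. They were chosen as 33 gene symbols, and each symbol matched 1 of the 57820 Ensembl gene identifiers in the count files. Of the 33, 32 passed the filter on low counts and were tested. The remaining member, FBP1, which encodes the gluconeogenic fructose-bisphosphatase, had 0 counts in all 4 libraries. In CPM, the count of a gene scaled to the size of its library, this allows a level of up to 0.068 to 0.112, the value of 3 counts. That range is scaled by total gene counts alone, without the scaling factors (TMM) used for the levels below.

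Glycolysis converts glucose to pyruvate in the cytosol. Pyruvate is then either reduced to lactate, which leaves the cell through monocarboxylate carriers, or taken into mitochondria, where pyruvate dehydrogenase makes acetyl-CoA from it and pyruvate carboxylase makes oxaloacetate. Pyruvate dehydrogenase kinases switch the dehydrogenase off by phosphorylation. Lung adenocarcinoma cells typically take up much glucose and release lactate, and several of these genes are known targets of the hypoxia-inducible factors.

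RNA was measured in 2 libraries of TD cells and 2 libraries of parental A549 cells. A549 is a long-established line of human lung adenocarcinoma cells that grow as an epithelium. TD is a line of mesenchymal-like morphology derived from A549 by TGF-β, a cytokine, given at 2 ng/ml every 3 days. Both lines grew in DMEM with 10% serum and gentamycin, and the time that TD cells had spent on TGF-β is not given in the sources used here. Counts on genes totalled 28237849 and 44133836 in the TD libraries and 26729278 and 29381872 in the A549 libraries. Whether the libraries of a line stem from separate cultures is not stated, and each p-value therefore reflects spread among libraries that may be technical.

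Marker genes went with the labels. CDH1, the epithelial cadherin, averaged 2.95 ± 0.134 CPM in TD and 189.9 ± 1.86 CPM in A549, and CDH2, the mesenchymal cadherin, averaged 187 ± 13.4 CPM in TD and 0.485 ± 0.0765 CPM in A549 (SD, n = 2 each). VIM, vimentin, averaged 1657 ± 260.3 CPM in TD and 368 ± 3.67 CPM in A549. The 6 epithelial markers summed to 1729 and 2070 CPM in TD and to 15317 and 16118 CPM in A549, and of these CLDN4 was at 0 throughout. The 5 mesenchymal markers summed to 2361 and 2676 CPM in TD and to 446 and 450.0 CPM in A549. The 6 fibroblast markers summed to between 1.83 and 2.46 CPM in every library, but members of this list moved in opposite directions. COL6A3 averaged 1.86 ± 0.0474 CPM in TD and 0.191 ± 0.0160 CPM in A549. LUM averaged 0.160 ± 0.0175 CPM in TD and 1.39 ± 0.0357 CPM in A549. Endothelial and erythroid markers summed to at most 0.394 CPM. TD replicate 2 stood apart in its pseudogenes, which took 0.373% of its gene counts, against 1.11% in TD replicate 1 and 1.13% and 1.15% in the A549 libraries.

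RNA of the whole set was lower in TD cells. The 33 genes took 1.72% and 1.82% of all gene counts in TD and 2.81% in each A549 library, so the TD share was 0.631 of the A549 share. These are shares of the RNA in bulk samples, in which fewer cells of a type and less RNA per cell cannot be told apart. Tested by edgeR's quasi-likelihood test, with p adjusted by the Benjamini-Hochberg method over all 17785 tested genes and calls at an adjusted p below 0.05, 21 of the 32 tested genes were lower in TD and 2 were higher, SLC16A1 and PFKFB4. Over all tested genes, 21.4% were called lower, 21.6% higher and 43% in either direction. The median log2 change, TD over A549, was -0.57 over the 32 genes and -0.04 over all tested genes. Both TD libraries lay below both A549 libraries for 27 of the 32 genes, against 37.5% of all tested genes, and above them for 4, against 36.5%. The groups overlapped for ALDOC alone. Leaving out A549 replicate 1 gave 12 genes called lower, and leaving out A549 replicate 2 gave 11, against 12% and 12.1% of all genes tested in these fits. When all pseudogenes were left out as well, an alternative added after seeing the data, the number was 22 and 24, against 26.1% and 25.2% of all genes tested.

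**Figure D1:**
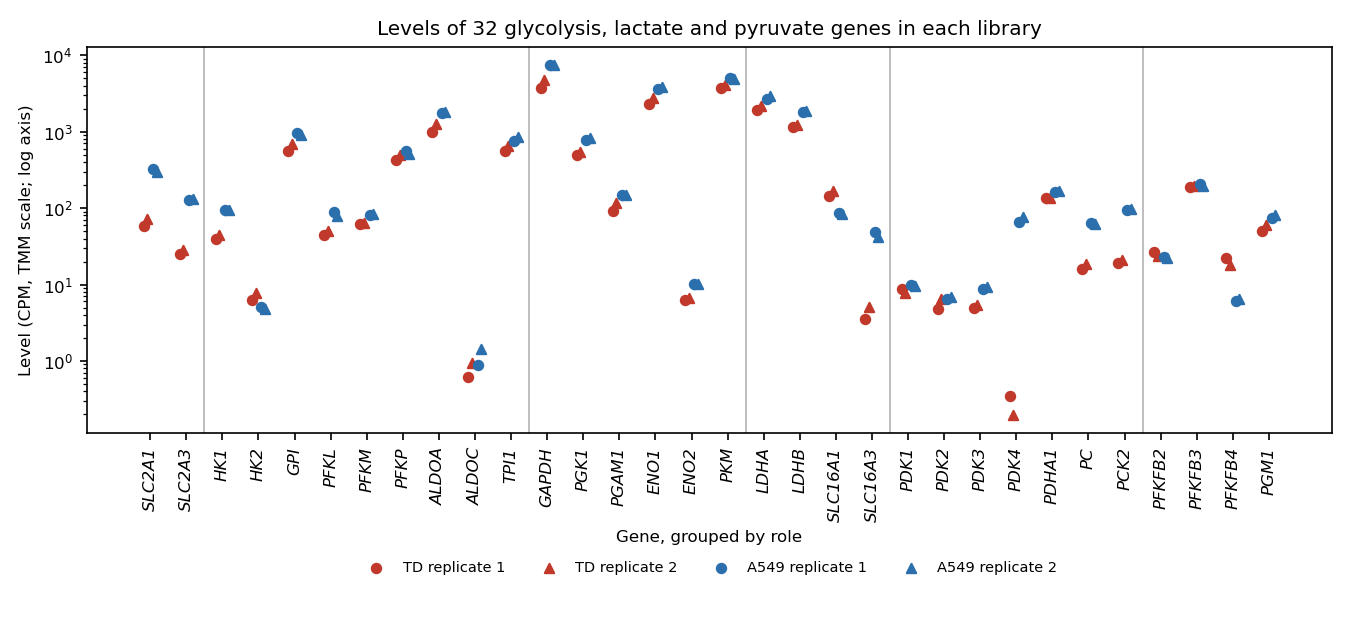
Level of each of the 32 tested genes in each library, in CPM on the TMM scale with a logarithmic axis; red marks TD and blue A549, circles replicate 1 and triangles replicate 2, and vertical lines separate uptake, preparatory enzymes, payoff enzymes, lactate genes, mitochondrial pyruvate genes, and PFKFB enzymes with PGM1. PDK4 shows the widest gap, with 0.345 and 0.197 CPM in TD and 64.9 and 76.9 CPM in A549, while SLC16A1 and PFKFB4 lie higher in TD.

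The abundant enzymes carried most of the summed level, and the genes that fell at least 2-fold were less abundant ones. In A549, 6 of the 33 genes exceeded 1000 CPM (GAPDH, PKM, ENO1, LDHA, LDHB and ALDOA), and these held 82.4% of the summed level of the set in TD and 82.5% in A549. Their log2 changes ran from -0.80 to -0.34, and PKM among them was not called. The 7 genes that were called and at least 2-fold lower in TD averaged at most 309 CPM in A549. They were PDK4, SLC16A3, SLC2A3, PCK2, SLC2A1, PC and HK1, and 12.3% of all tested genes met the same rule. PFKFB4 was the 1 gene called and at least 2-fold higher, a rule met by 9.49% of all tested genes. TD replicate 2 exceeded TD replicate 1 for 27 of the 32 genes, with a median ratio of 1.14, against 1.05 over all tested genes.

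**Figure D2:**
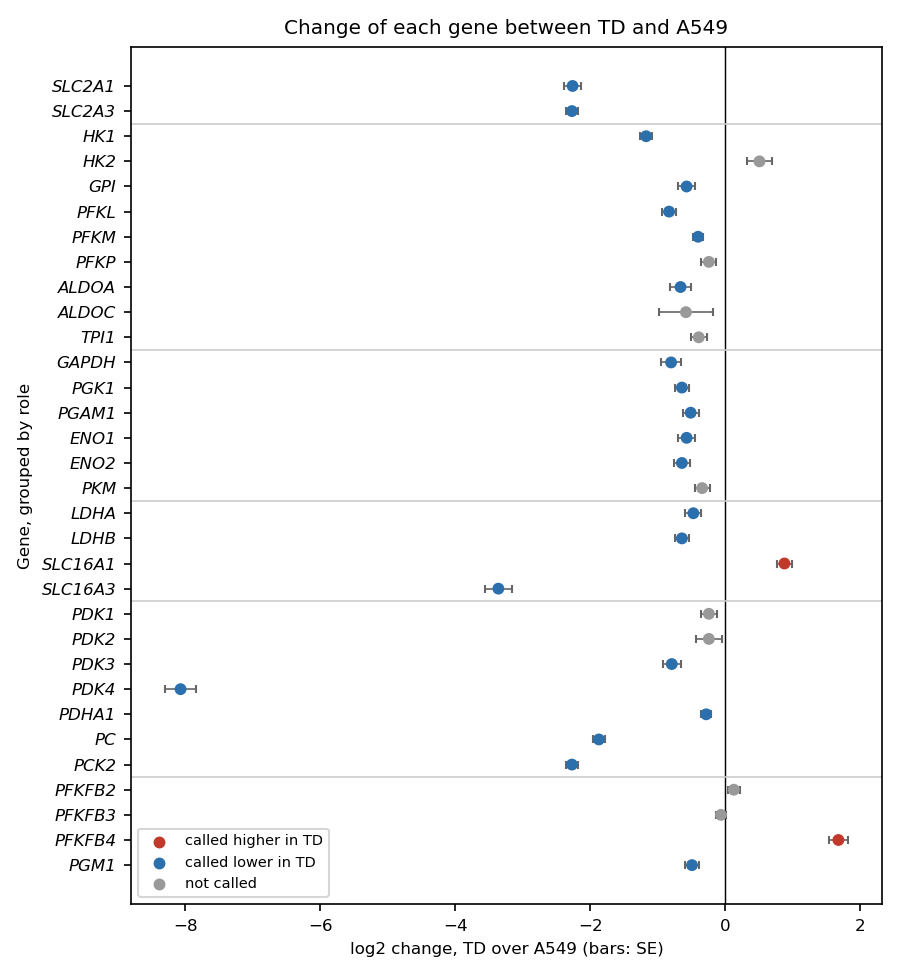
The log2 change of each tested gene, TD over A549, as a point with its standard error, in the same role order from glucose uptake at the top to PFKFB enzymes and PGM1 at the bottom; blue points were called lower, red points higher and grey points not called. The changes run from -8.07 for PDK4 to 1.68 for PFKFB4, and most enzymes of the main pathway lie between -1 and 0.

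The promoters of 5 genes, each with 1 start in the RefSeq table, are shown as examples. PDK4, SLC2A1 and PCK2 are among the 7 that fell at least 2-fold. PFKFB4 rose, and PGK1 fell moderately. Each sequence holds the 250 bases before the RefSeq start on GRCh38.p14, read 5′ to 3′ on the strand of the gene. The windows are chr7:95596517-95596766 (minus strand) for PDK4, chr1:42958869-42959118 (minus) for SLC2A1, chr14:24094061-24094310 (plus) for PCK2, chr3:48556804-48557053 (minus) for PFKFB4 and chrX:78103998-78104247 (plus) for PGK1. Capitals mark the core of the hypoxia response element, ACGTG or GCGTG on either strand.
PDK4: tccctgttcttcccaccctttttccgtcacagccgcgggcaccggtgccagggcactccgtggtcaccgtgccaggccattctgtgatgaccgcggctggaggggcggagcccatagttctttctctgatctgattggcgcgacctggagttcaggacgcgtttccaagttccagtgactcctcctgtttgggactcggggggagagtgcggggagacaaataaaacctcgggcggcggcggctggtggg
SLC2A1: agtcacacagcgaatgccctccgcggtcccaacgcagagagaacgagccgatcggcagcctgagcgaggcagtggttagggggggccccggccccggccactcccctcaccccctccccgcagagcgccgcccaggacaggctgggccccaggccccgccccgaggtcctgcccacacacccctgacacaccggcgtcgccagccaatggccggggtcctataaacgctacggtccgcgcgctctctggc
PCK2: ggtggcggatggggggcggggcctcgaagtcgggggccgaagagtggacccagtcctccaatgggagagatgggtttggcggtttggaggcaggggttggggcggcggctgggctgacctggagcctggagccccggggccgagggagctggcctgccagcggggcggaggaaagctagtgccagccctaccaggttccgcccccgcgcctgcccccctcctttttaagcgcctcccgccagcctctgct
PFKFB4: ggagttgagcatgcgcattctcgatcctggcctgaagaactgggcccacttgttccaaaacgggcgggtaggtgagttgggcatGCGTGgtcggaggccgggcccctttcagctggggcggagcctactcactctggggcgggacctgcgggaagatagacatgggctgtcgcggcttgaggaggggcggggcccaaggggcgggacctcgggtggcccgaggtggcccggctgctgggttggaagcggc
PGK1: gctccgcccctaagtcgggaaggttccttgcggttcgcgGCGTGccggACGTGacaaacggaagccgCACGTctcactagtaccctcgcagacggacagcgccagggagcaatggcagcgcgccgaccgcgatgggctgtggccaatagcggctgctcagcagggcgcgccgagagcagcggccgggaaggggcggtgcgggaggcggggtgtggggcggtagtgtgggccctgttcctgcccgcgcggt
PGK1 held 3 matches, at 211, 202 and 183 bases before its start, PFKFB4 held 1, at 166 bases, and the PDK4, SLC2A1 and PCK2 windows held 0. This does not hold for all genes that fell at least 2-fold. SLC16A3, PC and HK1 each held a core in at least 1 of their windows, and SLC2A3 had no window. Genes called lower by less than 2-fold differed as well. The windows of LDHB and PGAM1 held 0 cores, and those of GAPDH, ENO1 and GPI held a core. The RefSeq table gave 62 such windows for 30 of the 33 genes, several genes having more than 1 start. ACGTG was present in 33.9% of these windows and in 18.5% of all 35116 windows of the table, GCGTG in 30.6% and 32.2%, and either form in 51.6% and 43.2%. The E-box CACGTG, which contains ACGTG, was present in 11.3% of the windows of the set and in 6.34% of all windows. A match describes letters in this window and is no evidence that a factor binds there.

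Both glucose transporters fell, by similar factors. SLC2A1 encodes GLUT1, the basal glucose transporter of most cells, and had 57.8 and 71.4 CPM in TD, against 320.0 and 298.5 CPM in A549. SLC2A3 encodes the high-affinity transporter GLUT3 and had 25.4 and 28.3 CPM in TD, against 129 and 130.3 CPM in A549. Both TD libraries were far below both A549 libraries for each gene. The log2 change was -2.26 for SLC2A1 (SE 0.13, adjusted p = 0.000298 by edgeR) and -2.27 for SLC2A3 (SE 0.09, adjusted p = 9.3e-05 by edgeR). Per transcript length, SLC2A3 made up 29.2% and 27.1% of the sum of these transporters in TD and 27.5% and 29.04% in A549, so the groups overlapped. SLC2A3 shares much of its sequence with SLC2A14, and how reads were split between them is uncertain. SLC2A14 stood at 1.03 and 0.639 CPM in TD and at 1.04 and 1.25 CPM in A549.

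Of the hexokinases, which trap glucose as glucose 6-phosphate, HK1 was called lower and HK2 was not called. Whether their changes differ was not tested. HK1, the form found in most tissues, had 39.3 and 44.1 CPM in TD, against 94.1 and 94.2 CPM in A549, with a log2 change fitted at -1.17 (SE 0.09, adjusted p = 0.000662 by edgeR). HK2, the inducible form of many tumours, had 6.20 and 7.85 CPM in TD, against 5.10 and 4.79 CPM in A549. TD lay above A549 in each HK2 library, but the gene was not called (log2 change 0.51, SE 0.18, adjusted p = 0.0758 by edgeR). It was called under 5 of 21 alternatives, among them with pseudogenes left out (adjusted p = 0.0156) and without TD replicate 1 (adjusted p = 0.000265). Per transcript length, HK2 made up 8.98% and 9.99% of the hexokinase pair in TD and 3.28% and 3.08% in A549.

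Among the other preparatory enzymes, ALDOA and GPI were lower by less than 2-fold. ALDOA, the main aldolase, had 987 and 1273 CPM in TD, against 1745 and 1822 CPM in A549 (log2 change -0.66, SE 0.15, adjusted p = 0.0217 by edgeR). GPI, glucose-6-phosphate isomerase, had 565 and 691 CPM in TD, against 947.5 and 913 CPM in A549 (-0.57, SE 0.13, adjusted p = 0.0203 by edgeR). TPI1, which interconverts the triose phosphates, had 559 and 658 CPM in TD, against 747 and 845 CPM in A549, and was not called (-0.39, SE 0.12, adjusted p = 0.0609 by edgeR). All 3 were lower in both TD libraries, and TPI1 was called under 17 of 21 alternatives. ALDOA and GPI were not called without A549 replicate 1 (adjusted p = 0.0797 and 0.0792) or replicate 2 (0.0953 and 0.0696). ALDOC, the brain form of aldolase, stood between 0.62 and 1.45 CPM and made up at most 0.0643% of the aldolase pair per transcript length in any library.

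Phosphofructokinase catalyses the committed step and has 3 isoenzymes, of which the platelet form PFKP was the most abundant. PFKP had 425 and 488 CPM in TD, against 566 and 510 CPM in A549, and was not called (log2 change -0.24, SE 0.11, adjusted p = 0.156 by edgeR). PFKL, the liver form, had 44.5 and 50.6 CPM in TD, against 89.7 and 79.2 CPM in A549, with a log2 change fitted at -0.83 (SE 0.11, adjusted p = 0.00391 by edgeR). PFKM, the muscle form, had 61.6 and 63.0 CPM in TD, against 80.5 and 84.0 CPM in A549, with a log2 change fitted at -0.40 (SE 0.07, adjusted p = 0.0104 by edgeR). Whether the isoenzymes differ in their change was not tested. Per transcript length, PFKP made up 82.3% and 83.3% of the family in TD and 79.3% and 78.3% in A549, and PFKL 7.86% and 7.87% in TD and 11.5% and 11.1% in A549. The PFKM share overlapped between the groups. PFKP was called lower under 7 of 21 alternatives, among them without TD replicate 2 (adjusted p = 0.00455) and with pseudogenes left out (0.0213).

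The payoff enzymes, which make ATP and pyruvate, had fitted changes below 0 for all 6 members, and 5 were called lower. Of all 17785 tested genes, 9371 had fitted changes below 0 and 21.4% were called lower. GAPDH, glyceraldehyde 3-phosphate dehydrogenase and a common reference transcript, was the most abundant gene of the set, with 3775 and 4786 CPM in TD, against 7399 and 7543 CPM in A549. Its log2 change was -0.80 (SE 0.15, adjusted p = 0.0131 by edgeR). GAPDH alone made up 34.9% of the difference in summed CPM between the lines, and it held 27.3% of the summed CPM of the set in A549. ENO1, the main enolase, had 2299 and 2740 CPM in TD, against 3619 and 3875 CPM in A549 (-0.57, SE 0.13, adjusted p = 0.0226 by edgeR). PGK1, phosphoglycerate kinase, had 487 and 541 CPM in TD, against 777 and 829 CPM in A549 (-0.64, SE 0.10, adjusted p = 0.00641 by edgeR). Each of these was lower in both TD libraries.

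PGAM1, phosphoglycerate mutase, had 91.8 and 115 CPM in TD, against 147 and 148 CPM in A549 (log2 change -0.51, SE 0.12, adjusted p = 0.0272 by edgeR). ENO2, the neuronal enolase, had 6.34 and 6.76 CPM in TD, against 10.2 and 10.3 CPM in A549 (-0.64, SE 0.12, adjusted p = 0.0115 by edgeR). Although ENO2 fell, its share of the enolase pair per transcript length, 0.228% and 0.204% in TD and 0.233% and 0.219% in A549, overlapped between the groups. PKM, pyruvate kinase, whose splice forms M1 and M2 gene counts cannot separate, had 3702 and 4085 CPM in TD, against 4970 and 4901 CPM in A549. PKM was not called (-0.34, SE 0.11, adjusted p = 0.064 by edgeR), although both TD libraries lay below both A549 libraries, and it was called under 12 of 20 alternatives. GAPDH, ENO1, PGAM1 and ENO2 were not called without A549 replicate 1 (adjusted p = 0.0713, 0.0733, 0.0881 and 0.0578) or replicate 2 (0.0788, 0.102, 0.0918 and 0.0601).

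Pseudogenes, many of them copies of spliced transcripts, are frequent for these enzymes and can take reads from them. The annotation held 105 pseudogenes named for members of the set, 61 of them for GAPDH, and 81 had a count. They took 0.897% and 0.122% of the counts on the set and its pseudogenes in TD and 0.972% and 0.968% in A549. For GAPDH the share was 1.91% and 0.269% in TD and 1.99% and 1.98% in A549, and for TPI1 it was 6.13% and 0.786% in TD and 6.35% and 6.03% in A549. The low value was that of TD replicate 2 in each case. With all pseudogenes left out of the fit, 24 genes of the set were lower and 3 higher, against 31.1% and 29% of all genes tested in that fit. Leaving them out changed no count of a member, so this fit cannot show whether pseudogenes took reads from the enzymes. Its coefficient of variation was 7.9%, against 20.1% in the main fit.

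Both subunits of lactate dehydrogenase were lower in TD. LDHA, the dehydrogenase subunit that favours lactate formation, had 1889 and 2185 CPM in TD, against 2694 and 2955 CPM in A549 (log2 change -0.47, SE 0.12, adjusted p = 0.034 by edgeR). LDHB, the subunit that favours the reverse reaction, had 1133 and 1236 CPM in TD, against 1809 and 1880 CPM in A549 (-0.64, SE 0.10, adjusted p = 0.00667 by edgeR). The groups did not overlap for either gene. LDHA made up 51.5% and 52.9% of the pair per transcript length in TD and 48.7% and 50.0% in A549. LDHA missed the threshold without A549 replicate 1 (adjusted p = 0.0751), without A549 replicate 2 (0.127) or with DESeq2 size factors (0.0734).

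The lactate carriers moved in opposite directions. SLC16A1 encodes MCT1, a carrier that moves lactate either way, and had 143 and 169 CPM in TD, against 86.4 and 83.2 CPM in A549, with a log2 change fitted at 0.88 (SE 0.11, adjusted p = 0.00305 by edgeR). SLC16A3 encodes MCT4, the carrier typical of lactate-exporting cells and a hypoxia target, and had 3.55 and 5.07 CPM in TD, against 48.0 and 41.4 CPM in A549. These came from 103 and 206 counts in TD and 1335 and 1228 counts in A549. Neither gene overlapped between the groups, and SLC16A3 was 10.3-fold lower in TD (log2 change -3.36, SE 0.20, adjusted p = 0.000319 by edgeR). Per transcript length, SLC16A3 made up 2.20% and 2.64% of the pair in TD and 33.4% and 31.1% in A549. Counting error was small beside this, since 95% Wilson intervals of the shares reached at most 1.51 percentage points from the value. BSG, basigin, the chaperone that brings both carriers to the membrane, had 369 and 407 CPM in TD, against 1028 and 1008 CPM in A549 (-1.39, SE 0.09, adjusted p = 0.000493 by edgeR). EMB, embigin, a related chaperone, went the other way, with 28.98 and 29.61 CPM in TD, against 15.6 and 17.8 CPM in A549 (0.81, SE 0.10, adjusted p = 0.00303 by edgeR).

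**Figure D3:**
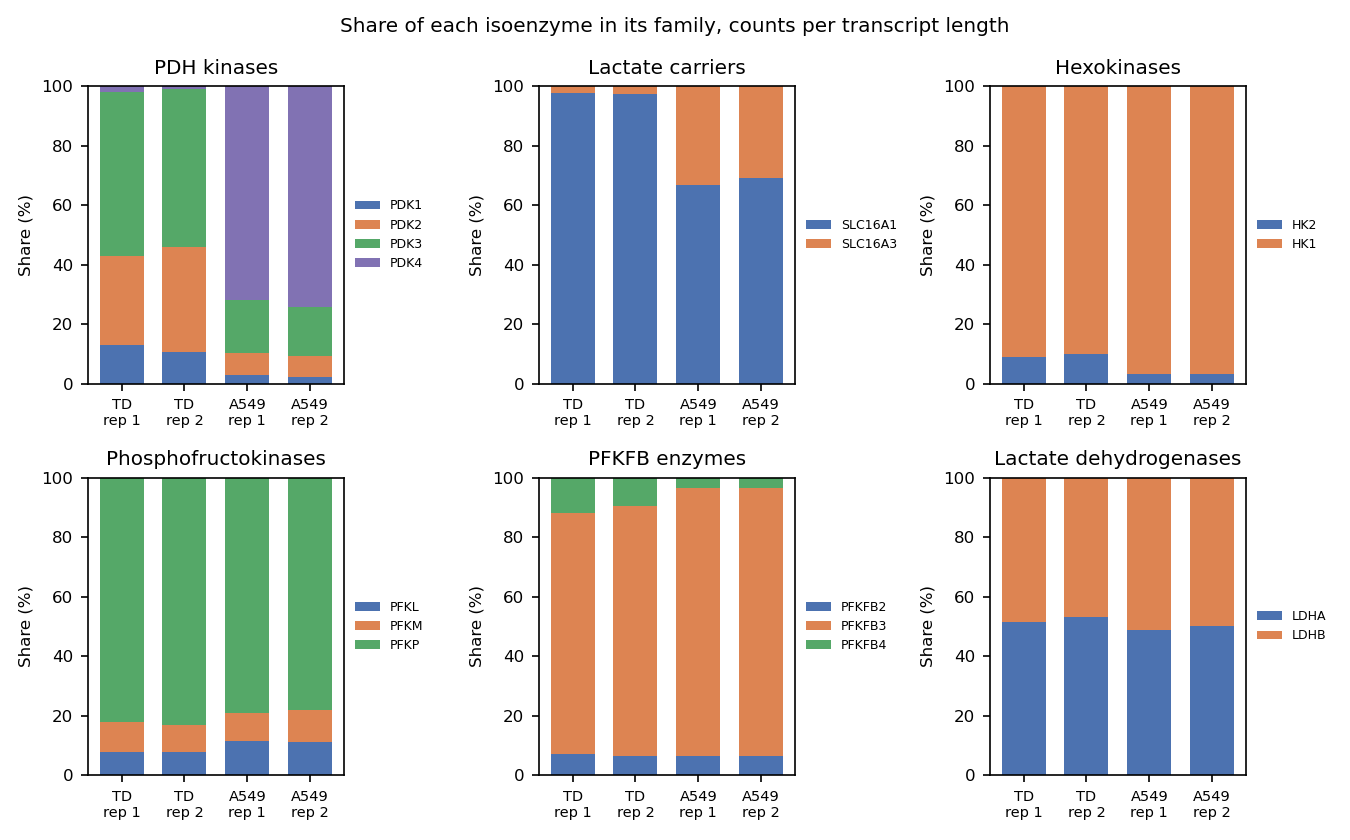
Share of each isoenzyme in its family in each library, in percent of the family's counts divided by transcript length; each bar is a library, TD left and A549 right, and colours mark isoenzymes. PDK4 takes 2.04% and 1.05% of the kinase family in TD and 71.9% and 74.1% in A549, and SLC16A3 takes 2.20% and 2.64% of the lactate carriers in TD and 33.4% and 31.1% in A549.

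PDK4 had the largest fitted change of the 32 tested genes. It encodes a pyruvate dehydrogenase kinase that is known to respond to fasting and fatty acids, and had 10 and 8 counts in TD, against 1807 and 2283 counts in A549. On the CPM scale this was 0.345 and 0.197 in TD and 64.9 and 76.9 in A549, a 269-fold lower level (log2 change -8.07, SE 0.23, adjusted p = 4.97e-05 by edgeR). Its promoter window, shown above, held neither form of the hypoxia core. PDK3 had 5.00 and 5.36 CPM in TD, against 8.66 and 9.30 CPM in A549 (-0.79, SE 0.13, adjusted p = 0.0087 by edgeR), which missed the threshold without A549 replicate 2 (adjusted p = 0.0569). PDK1, a hypoxia target, stood between 7.77 and 8.79 CPM in TD and between 9.67 and 9.81 CPM in A549 (log2 change -0.24, SE 0.12), and PDK2 at 4.86 and 6.39 CPM in TD and at 6.47 and 6.81 CPM in A549 (-0.24, SE 0.19). Neither was called (adjusted p = 0.192 for PDK1 and 0.37 for PDK2 by edgeR). Per transcript length, PDK4 held most of the family in A549, and also without division by length. PDK3 made up 54.1% ± 1.32 of the family in TD, against 17.3% ± 0.832 in A549 (SD, n = 2 each). Which kinase led in TD depended on the length used. Without division by length PDK1 led, with 46.3% and 39.4% in TD, and by exon union length PDK3 led in TD replicate 1 with 39.4% and PDK2 in TD replicate 2 with 41.4%.

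PC and PCK2 fell more than 2-fold in TD, and PDHA1 was lower by a small margin. PDHA1, the catalytic subunit of pyruvate dehydrogenase that the kinases phosphorylate, had 137 and 135 CPM in TD, against 163 and 168 CPM in A549 (log2 change -0.28, SE 0.07, adjusted p = 0.0299 by edgeR). This small difference was not called with DESeq2 size factors (adjusted p = 0.0929), without A549 replicate 1 (0.0768) or replicate 2 (0.107), with the replicate number as a block (0.0566), or with pseudogenes left out and without TD replicate 2 (0.0784). PC, pyruvate carboxylase, which refills the citrate cycle, had 16.2 and 18.4 CPM in TD, against 64.2 and 62.5 CPM in A549 (-1.87, SE 0.09, adjusted p = 0.000199 by edgeR). PCK2, the mitochondrial enzyme that makes phosphoenolpyruvate from oxaloacetate, had 18.9 and 20.9 CPM in TD, against 94.7 and 98.1 CPM in A549 (-2.27, SE 0.09, adjusted p = 9.26e-05 by edgeR). PC and PCK2 kept their calls under all 21 alternatives, and their groups lay far apart.

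The bifunctional PFKFB enzymes make and break the sugar bisphosphate that activates phosphofructokinase, and 1 of the 3 was called, as higher in TD. PFKFB4, a bifunctional kinase and phosphatase that is known as a hypoxia target in tumours, had 22.4 and 17.98 CPM in TD, against 6.11 and 6.47 CPM in A549, and was 3.21-fold higher in TD (log2 change 1.68, SE 0.14, adjusted p = 0.00104 by edgeR). PFKFB3, the family member with the highest kinase activity, had 189 and 195 CPM in TD, against 204 and 197 CPM in A549 (-0.06, SE 0.07, adjusted p = 0.572 by edgeR). PFKFB2 had 26.3 and 23.4 CPM in TD, against 23.0 and 22.3 CPM in A549 (0.13, SE 0.09, adjusted p = 0.316 by edgeR). Neither was called, here or under any alternative. PFKFB4 made up 10.8% ± 1.65 of the family per transcript length in TD and 3.54% ± 0.221 in A549 (SD, n = 2 each), and the groups did not overlap. PGM1, which links glucose 6-phosphate to glycogen, had 50.8 and 60.9 CPM in TD, against 75.3 and 81.9 CPM in A549 (-0.49, SE 0.11, adjusted p = 0.0239 by edgeR), which missed the threshold without A549 replicate 1 (adjusted p = 0.0567) and replicate 2 (0.0881).

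Lists of neighbouring genes were described in the same way, with the share of the tested genes of each list in parentheses. Over all tested genes, 21.4% were called lower and 21.6% higher. Of 9 tested glycolytic and gluconeogenic enzymes outside the set, 3 were lower (33.3%) and 3 higher (33.3%), with a median log2 change of 0.03. HKDC1, a hexokinase relative, had 29.2 and 30.6 CPM in TD, against 205 and 197 CPM in A549 (-2.75, SE 0.08, adjusted p = 5.18e-05 by edgeR), and so exceeded HK1 in CPM in A549. LDHD, D-lactate dehydrogenase, had 0.689 and 0.443 CPM in TD, against 3.20 and 1.92 CPM in A549 (-2.18, adjusted p = 0.0122 by edgeR), which missed the threshold without A549 replicate 1 (0.0991). ENO3, the muscle enolase, had 34.7 and 35.0 CPM in TD, against 12.7 and 9.27 CPM in A549 (1.67, SE 0.16, adjusted p = 0.00161 by edgeR). G6PC3, a glucose-6-phosphatase, had 60.1 and 78.7 CPM in TD, against 49.4 and 45.5 CPM in A549 (0.55, adjusted p = 0.0371 by edgeR), which missed the threshold without A549 replicate 1 (0.127) or replicate 2 (0.173) and with the replicate block (0.0914).

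Of 10 tested transporters and chaperones outside the set, 4 were higher (40%) and 2 lower (20%), with a median log2 change of 0.36. Besides BSG, SLC2A11 was lower (log2 change -0.62, adjusted p = 0.0495 by edgeR), and this call held under only 13 of 21 alternatives, with adjusted p up to 0.2. SLC2A12, the transporter GLUT12, had 2.69 and 3.39 CPM in TD, against 0.934 and 0.978 CPM in A549 (1.67, adjusted p = 0.00629 by edgeR), and missed the threshold without A549 replicate 1 (0.0577) or replicate 2 (0.0521). SLC2A6 had 6.17 and 8.90 CPM in TD, against 4.10 and 3.17 CPM in A549 (1.05, adjusted p = 0.0262 by edgeR), and missed the threshold without A549 replicate 1 (0.0833) or replicate 2 (0.139) or with the replicate block (0.088). None of these reached the CPM of SLC2A1 in the same library.

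Of 14 genes of the pyruvate dehydrogenase complex, the mitochondrial pyruvate carrier and pyruvate-linked enzymes, 6 were lower (42.9%) and 2 higher (14.3%). Their median log2 change was -0.24. PDP1, the phosphatase that switches pyruvate dehydrogenase back on, had 19.9 and 20.7 CPM in TD, against 5.21 and 5.29 CPM in A549 (1.95, SE 0.10, adjusted p = 0.00019 by edgeR). PDPR, a regulatory subunit of that phosphatase, had 51.8 and 52.0 CPM in TD, against 35.7 and 36.2 CPM in A549 (0.53, SE 0.07, adjusted p = 0.004 by edgeR). PDP2, the other catalytic subunit, had 13.8 and 12.5 CPM in TD, against 13.98 and 14.9 CPM in A549, and was not called (-0.14, SE 0.10, adjusted p = 0.352 by edgeR). MPC2, a subunit of the mitochondrial pyruvate carrier, had 34.5 and 37.8 CPM in TD, against 103 and 101 CPM in A549 (-1.50, SE 0.08, adjusted p = 0.000256 by edgeR). GPT, an alanine aminotransferase, had 0.999 and 0.713 CPM in TD, against 3.92 and 2.39 CPM in A549 (-1.88, adjusted p = 0.0136 by edgeR), which missed the threshold without A549 replicate 1 (0.0971).

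The citrate cycle as listed, with the malate-aspartate shuttle, lay close to all tested genes in its median log2 change, -0.04. Of 22 genes, 6 were lower (27.3%) and 3 higher (13.6%). GOT1, the cytosolic aspartate aminotransferase, averaged 31.6 ± 3.21 CPM in TD and 89.3 ± 3.18 CPM in A549 (SD, n = 2 each), and SUCLA2, a succinyl-CoA ligase subunit, 48.8 ± 1.51 CPM in TD and 86.5 ± 2.25 CPM in A549. ACLY, which turns exported citrate into acetyl-CoA, averaged 1195 ± 133 CPM in TD and 570 ± 12.8 CPM in A549, and ACO1, the cytosolic aconitase, 155 ± 13.0 CPM in TD and 88.1 ± 4.61 CPM in A549. These 4 were called under all 21 alternatives.

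Glycogen genes and side branches went both ways. Of 19 tested glycogen genes, 9 were lower (47.4%) and 4 higher (21.1%), with a median log2 change of -0.32. Over all tested genes, 21.4% were lower and 21.6% higher. PGM2L1, which makes glucose 1,6-bisphosphate, had 157 and 163 CPM in TD, against 16.1 and 16.3 CPM in A549 (3.30, SE 0.08, adjusted p = 3.68e-05 by edgeR). PYGL, the liver glycogen phosphorylase, was higher (1.05, SE 0.09), and PYGB, the brain form, was lower (-1.55, SE 0.11), as was the phosphorylase kinase subunit PHKA2 (-1.53, SE 0.09). Of 15 genes of the serine, glycerol phosphate and hexosamine branches, 6 were lower (40%) and 3 higher (20%), with a median of -0.05. GPD1, cytosolic glycerol 3-phosphate dehydrogenase, had 9 and 8 counts in TD, against 485 and 534 counts in A549 (-6.14, SE 0.22, adjusted p = 8.05e-05 by edgeR), and PHGDH, which opens the serine branch, was lower as well (-0.78, SE 0.08). GNPNAT1 and UAP1, both of the hexosamine branch, were higher (1.61, SE 0.11, and 1.23, SE 0.07).

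Of 14 tested regulators of glucose use, 6 were higher (42.9%) and 6 lower (42.9%), with a median log2 change of -0.21. MLXIPL encodes the glucose-sensing factor ChREBP and had 0 and 2 counts in TD, against 198 and 127 counts in A549, a level 197-fold lower in TD by summed counts. The 95% exact interval of 54.05 to 1632 covers counting error only. The fitted log2 change was -7.47 (SE 0.72, adjusted p = 0.00151 by edgeR) and ran from -10.36 to -6.73 over the alternatives, the ends being those without TD replicate 2 and without TD replicate 1. MLXIP, its paralog MondoA, had 257 and 277 CPM in TD, against 61.9 and 55.6 CPM in A549 (2.18, SE 0.10, adjusted p = 0.000132 by edgeR). PPARGC1A, a coactivator of mitochondrial genes, had 0.414 and 0.689 CPM in TD, against 23.8 and 21.4 CPM in A549 (-5.31, SE 0.24, adjusted p = 0.000143 by edgeR), and PRKAA1, a catalytic subunit of the energy sensor AMPK, was higher (0.89, SE 0.08). The hypoxia factor genes are part of this list: HIF1A had 384 and 421 CPM in TD, against 216 and 231 CPM in A549 (0.85, SE 0.09, adjusted p = 0.00212 by edgeR). EPAS1, which encodes HIF-2α, had 194 and 228 CPM in TD, against 717 and 726 CPM in A549 (-1.77, SE 0.11, adjusted p = 0.000381 by edgeR). From the same list, ARNT was higher (0.51, SE 0.07, adjusted p = 0.00503 by edgeR). EGLN3 was lower (-2.50, SE 0.12, adjusted p = 0.000188 by edgeR). The part of these regulators in the changes of the glycolysis genes was not tested.

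**Figure D4:**
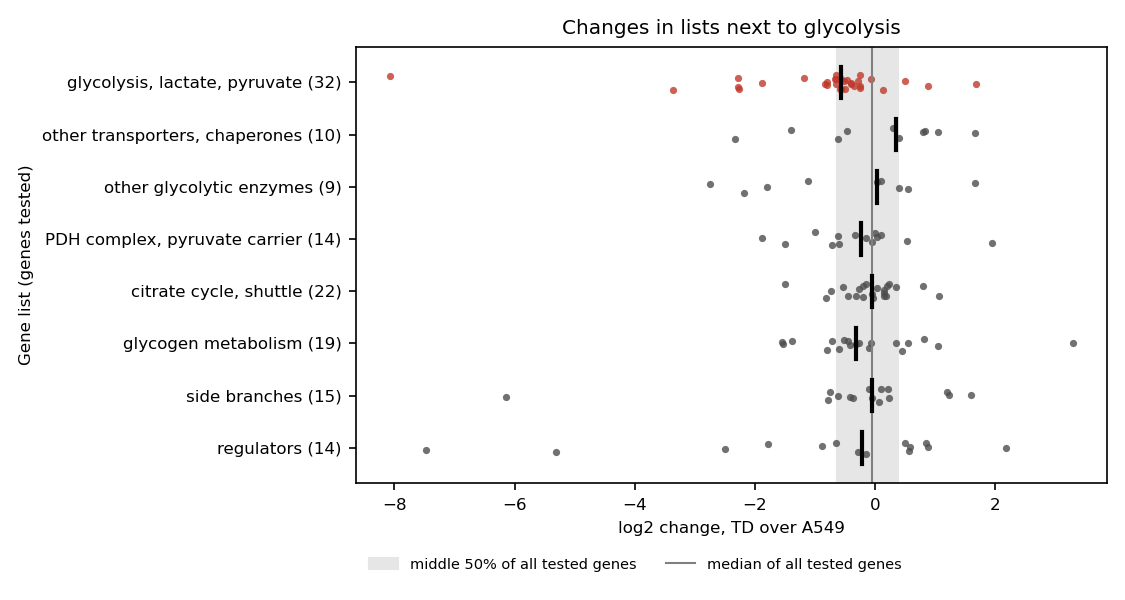
The log2 change, TD over A549, of each tested gene in the glycolysis, lactate and pyruvate set (red) and in 7 lists of neighbouring genes (grey), with a black bar at each median; the grey band spans the middle 50% of all tested genes, from -0.63 to 0.39, and the grey line marks their median of -0.04. The median of the set lies at -0.57, and the lists of neighbouring genes have medians from -0.32 to 0.36.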

How the data were processed

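RNA was extracted with Trizol, treated with DNase, made into strand-specific polyadenylated libraries with a TruSeq kit and read in pairs of 75 bases on an Illumina NextSeq, per the labels' protocols. Each library has a table of deposited counts, not normalised, with 1 value per Ensembl gene. FastQC 0.11.8, STAR 2.7.1a, HTSeq 0.11.2 and the build hg19 (GRCh37) are named in the submitters' processing notes. Which annotation release and strand setting the counting used is not given in the sources used here, so overlapping and near-identical genes are uncertain. Reads given to no gene (6.12% to 7.79% of all), to more than 1 gene (2.34% to 2.56%) or with several alignments (8.08% to 9.22%) stayed out of library sizes and tests.

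Of the identifiers, 52338 were paired with a symbol of GENCODE 29, an annotation on GRCh38 used only for names, gene types and transcript lengths. Promoter sequences are from RefSeq. TXNIP of the list of regulators found no match by symbol. TD was compared with A549 in edgeR 4.0.16 (R 4.3.3) by the quasi-likelihood test over all genes, with TMM scaling, a filter at 10 counts and adjustment by Benjamini-Hochberg. The test was checked on simulated data with 200 changed genes and a smaller spread than these libraries show. This check does not reach the spread or the number of changes seen here. Levels are CPM on the TMM scale, and the SE of a log2 change was taken from the change and its F statistic. Isoenzyme shares divide counts by the length of the principal transcript, carry 95% Wilson intervals that cover counting error only, and were given no test, since an exact permutation test of 2 libraries against 2 cannot go below p = 0.333. Neighbouring lists were described by counts and medians. The list of leukocyte markers is not reported here. The members and lists were chosen with earlier results of these data known. Named genes were all members, up to 2 called genes in each direction from every list, by size of change, and CDH1, CDH2 and VIM. SLC2A14, EMB, PDP2, HIF1A, EPAS1, ARNT, EGLN3, CLDN4, COL6A3 and LUM were named after their values were seen. Replicate numbers do not mark shared cultures in the labels, and the main fit has no block. Alternatives covered scaling, filters, features, libraries, DESeq2 1.42.0 and limma-voom (limma 3.58.1).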

Additional observations from a re-analysis of the deposited data

How the results depend on the processing

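Of the 23 called genes of the set, 13 kept their call under every alternative, of 21, in which they were tested, and 31 of the 32 fitted changes kept their sign, the exception being PFKFB2, which was never called. Leaving out a library in turn gave 2114 to 5329 genes higher and 2236 to 6140 lower in TD over all genes, and 11 to 26 genes of the set lower, the highest without TD replicate 2. Over all genes, the most were called lower without TD replicate 1. Without an A549 library the spread came from the TD pair alone, and the coefficient of variation was 34.1% and 34.0%. It was 7.08% without either TD library, 20.1% with all libraries and 7.9% with pseudogenes left out. Where it was highest, the fewest genes were called lower, in the set and over all genes. With a library left out in turn, the median log2 change of the set ran from -0.696 to -0.396, and that of all tested genes from -0.071 to -0.016. With pseudogenes left out and a library left out in turn, the median log2 change of the set ran from -0.677 to -0.467. Over all genes tested in these fits it ran from -0.014 to 0.007. A group reduced to 1 library is assumed to vary like the pair. The replicate block gave 2964 genes higher and 2847 lower over all genes (16.7% and 16%) and 2 and 21 in the set. The replicate differences of the lines had a correlation of -0.079 across genes. With 1 such difference per line, this value cannot decide whether the replicate numbers mark paired samples.

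Differences in isoenzyme share, TD minus A549 in percentage points, moved with the length used. Without division by length, HK2 came to 9.37 (6.31 with it), PDK1 to 32.7 (9.21), PDK3 to 17.4 (36.8) and SLC16A3 to -31.8 (-29.8). By exon union length, added after seeing the data, they were 9.66 for HK2, -2.24 for PFKL (-3.40), 2.89 for PFKP (4.01), 17.4 for PDK1, 31.7 for PDK2 (25.5), 29.5 for PDK3, -78.7 for PDK4 (-71.5) and -22.1 for SLC16A3. No difference changed direction, but the leading kinase of the PDK family in TD did change. Depth limits what can be said of FBP1 and ALDOC, of PDK4 in TD, which rests on 18 counts, and of MLXIPL in TD, which rests on 2.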
